A study of Homo sapiens with 6 samples.

Results

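Collagen chains and a set of small matrix proteins and collagen-modifying enzymes were followed in sorafenib-resistant and sorafenib-sensitive MHCC97H cells. The members were every gene symbol of the form COL, digits, A, digits, which gave 44 collagen chains, and 13 named genes, namely SPARC, EFEMP1, FSTL1, LOX, LOXL1, LOXL2, LOXL3, LOXL4, PLOD1, PLOD2, PLOD3, P4HA2 and P4HA3. Together they are 57 of the 19202 genes counted. MHCC97H is a human hepatocellular carcinoma line with a strong tendency to metastasise. Sorafenib, a drug for advanced liver cancer, inhibits several kinases. RNA was sequenced from 3 resistant libraries, titled SR, and 3 control libraries of the same line. All carry the MHCC97H background, and the labels give no dose, no duration of selection, no statement on whether the drug was present at harvest, and no statement on whether the resistant cells are 1 clone or a pool. Nor do they say if each replicate is a culture of its own. The p-values therefore rest on a library-to-library spread that could be technical only.

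Collagens are secreted as helical trimers of chains rich in glycine and proline. In the endoplasmic reticulum prolyl hydroxylases stabilise the helix and lysyl hydroxylases prepare lysines for glycosylation and cross-linking. After secretion, lysyl oxidases join the molecules covalently. In liver, fibrillar collagens come mainly from stellate cells and fibroblasts, and type IV collagen lies in the basement membrane under endothelium and epithelium.

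Library totals ran from 3745068 to 4961907 counts in resistant and from 1913469 to 5345272 counts in control cells. The line's keratins KRT8 and KRT18 were abundant in every library, at 1010 to 1209 and 698 to 839 CPM in resistant cells and at 1105 to 1401 and 693 to 876 CPM in control cells. They gave most of the sum of the 12 hepatocyte and liver tumour markers listed, 1797 to 2145 CPM in resistant and 1957 to 2416 CPM in control cells. Albumin had 1.62, 6.58 and 8.39 CPM in resistant cells, against 13.4, 17.7 and 20.8 CPM in control cells. AFP, APOA1 and TTR were at or under 4.11 CPM in every library. CPM is the count scaled by the library total and the TMM factor. Resistant replicate 3 stood apart for many of the matrix genes, and its value is given apart wherever levels are listed by library. Group means include it unless stated. Calls are at an adjusted p under 0.05 in edgeR's quasi-likelihood test over 10804 genes, and log2FC is the log2 fold change of resistant over control cells.

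Of the 57 members, 21 passed the filter on low counts and were tested, 10 collagens and 11 of the named genes. Of these 21, 4 were called higher and 4 lower, or 38.1% of the members tested, against 24.1% of all genes tested (11.7% higher and 12.3% lower). The members, SPARC, EFEMP1 and FSTL1 among them, were chosen with earlier results of these data known. Their shares are therefore a description, and nothing is read from them against those of all genes. The median log2FC was -0.07 over the tested members and -0.01 over all tested genes. Of the 10 collagens, 2 were called lower and 0 higher, with 2 at an unadjusted p under 0.05 in the same edgeR test and 0 higher in DESeq2 and limma-voom. The resistant and control libraries did not overlap for 6 tested members, or 28.6%, against 38.1% of all genes tested. Without resistant replicate 3, 6 of the 22 members then fitted were called, COL24A1 among them, where 19.6% of all genes were. Of the 8 original calls 5 were kept. The calls lost were SPARC, EFEMP1 and FSTL1, all higher with that library, and the call gained was COL24A1, with 0 counts in both resistant libraries left. COL24A1 passed the filter there through the control libraries alone, which fixes its direction. It therefore adds nothing to the count, which is 5 without it.

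**Figure D1:**
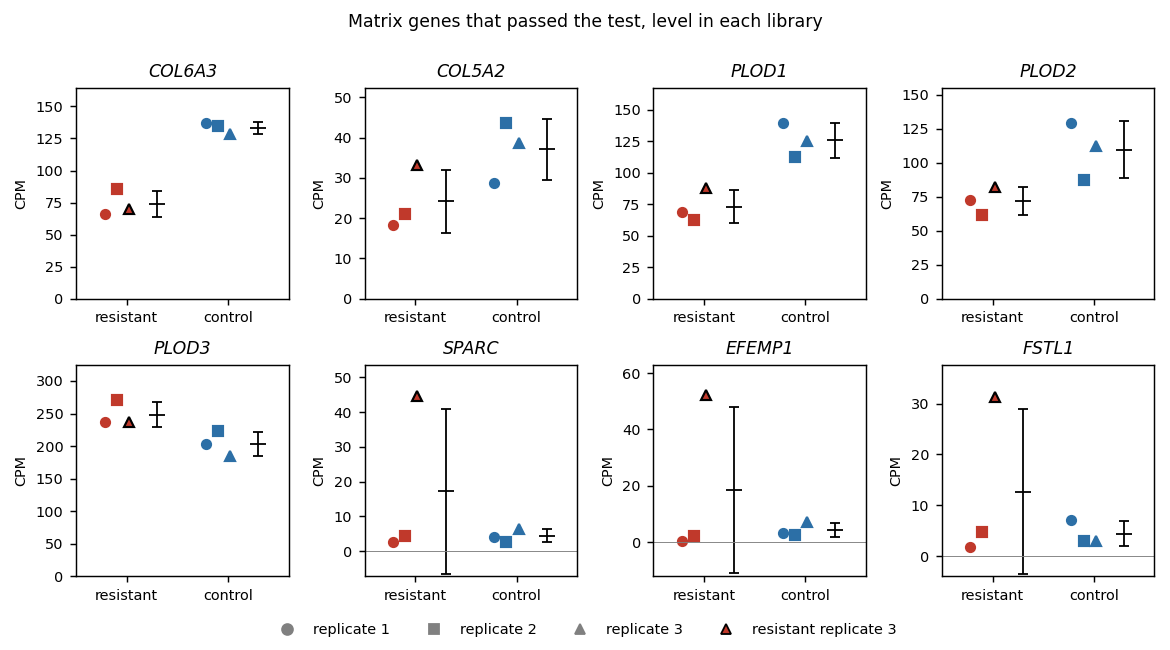
Level in CPM (y axis, linear) of the 8 matrix genes called by edgeR in each library, resistant cells left and control cells right, with the mean and SD (n = 3) beside the points. COL6A3, PLOD1 and PLOD2 were lower in every resistant library than in every control library, whereas SPARC, EFEMP1 and FSTL1 were high in resistant replicate 3 alone, at 44.6, 52.4 and 31.3 CPM.

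Promoter sequence is shown for genes whose values below divide, or are high together in resistant replicate 3 alone. COL6A3 was lower in resistant cells while its partner chain COL6A2 was not called, COL4A1 and COL4A2 are transcribed away from each other from starts a short stretch apart and were both highest in resistant replicate 3, and SPARC was high in that library. The sequences are from RefSeq on GRCh38.p14, and 42 of the 57 members had an entry. The stretch between the COL4A1 and COL4A2 starts is 126 bases at chr13:110307158-110307283, read on the plus strand. The others are the 250 bases before the start, for COL6A3 at chr2:237414165-237414414 on the minus strand, for COL6A2 at chr21:46097862-46098111 on the plus strand and for SPARC at chr5:151686916-151687165 on the minus strand. The start used is that of RefSeq. The outermost start in GENCODE 29 lies further out for these genes, so that 211 of the 250 bases for COL6A3, 15 for COL6A2 and all 250 for SPARC fall inside the GENCODE span. The stretch between the COL4A1 and COL4A2 starts likewise lies wholly inside the GENCODE span of COL4A2 and partly inside that of COL4A1. Capitals mark matches to any of 3 short motifs, searched on both strands. The GC box was spelled GGGCGG. The CCAAT box was spelled by its name. The TATA box was spelled TATAAA.
COL4A1-COL4A2: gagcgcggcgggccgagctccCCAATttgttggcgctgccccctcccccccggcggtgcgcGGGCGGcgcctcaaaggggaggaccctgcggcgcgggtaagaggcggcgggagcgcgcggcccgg
COL6A3: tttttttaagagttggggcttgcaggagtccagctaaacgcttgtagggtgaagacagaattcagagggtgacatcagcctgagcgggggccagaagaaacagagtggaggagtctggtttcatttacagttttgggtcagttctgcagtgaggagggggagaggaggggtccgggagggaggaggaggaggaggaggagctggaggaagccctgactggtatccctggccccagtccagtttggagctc
COL6A2: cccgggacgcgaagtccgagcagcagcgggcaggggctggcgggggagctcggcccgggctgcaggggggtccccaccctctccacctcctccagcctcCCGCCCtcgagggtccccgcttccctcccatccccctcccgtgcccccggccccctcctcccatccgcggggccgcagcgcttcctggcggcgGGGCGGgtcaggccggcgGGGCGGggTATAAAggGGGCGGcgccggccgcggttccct
SPARC: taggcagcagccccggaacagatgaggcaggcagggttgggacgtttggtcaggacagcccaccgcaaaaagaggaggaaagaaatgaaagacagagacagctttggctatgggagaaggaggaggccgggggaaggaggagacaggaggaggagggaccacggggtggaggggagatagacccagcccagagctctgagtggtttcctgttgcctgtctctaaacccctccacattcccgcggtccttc
The COL6A2 window held 4 GC box matches and 1 TATA box match, and the COL6A3 and SPARC windows held 0 of the 3 motifs. The stretch between COL4A1 and COL4A2 held 1 GC box match and 1 CCAAT match. Among 35116 RefSeq promoter windows of 250 bases, 42.6% held a GC box, 32.0% a CCAAT box and 10.7% a TATA box. In windows of 126 bases the shares were 34.6% for the GC box and 21.1% for the CCAAT box. These matches are letters only, on either strand, and none of the motifs contains another.

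Type VI collagen forms beaded microfibrils around cells from alpha chains encoded by COL6A1, COL6A2 and COL6A3, and it made up most of the collagen counts. Its genes took 77.7, 77.7 and 72.4% of the summed collagen CPM in resistant replicates 1, 2 and 3, and 78.3, 76.7 and 76.7% in control replicates 1, 2 and 3. COL6A3, whose product is the largest chain, fell. It had 66.0, 85.6 and 70.2 CPM in resistant cells, against 137, 135 and 128 CPM in control cells. Every resistant library lay below every control library, and resistant replicate 3 lay between the other resistant libraries. The means were 73.9 ± 10.3 CPM in resistant and 133 ± 4.70 CPM in control cells (SD, n = 3 each), with a log2FC of -0.85 (SE 0.12) and an adjusted p of 1.37e-06 in edgeR. Without resistant replicate 3 the log2FC was -0.80.

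Its partner chains were not called. COL6A1 had 467, 535 and 519 CPM in resistant cells, against 490, 600 and 527 CPM in control cells, with a log2FC of -0.09 and a 95% interval of -0.28 to 0.10. COL6A2 had 215, 240 and 265 CPM in resistant cells, against 239, 271 and 246 CPM in control cells, with a log2FC of -0.07 and an interval of -0.28 to 0.13. The groups overlapped for both genes. COL6A1 and COL6A2 are neighbours on chromosome 21, and COL6A3 lies on chromosome 2. Per kb of transcript, the longest coding transcript in GENCODE 29, the ratio of COL6A3 to COL6A1 was 0.0558, 0.0631 and 0.0533 in resistant replicates 1, 2 and 3, against 0.110, 0.0886 and 0.0960 in control replicates 1, 2 and 3. The groups did not overlap, and the exact two-sided permutation p was 0.1, the smallest that 3 against 3 libraries allow. This ratio was chosen after the values of both genes were seen, so it restates the COL6A3 call and is no further evidence. The ratio of COL6A2 to COL6A1 per kb was 0.580 ± 0.0396 in resistant and 0.574 ± 0.0221 in control cells (SD, n = 3 each), with an exact permutation p of 0.9. Because these are bulk libraries, fewer cells that express a gene and less RNA per cell cannot be told apart.

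**Figure D2:**
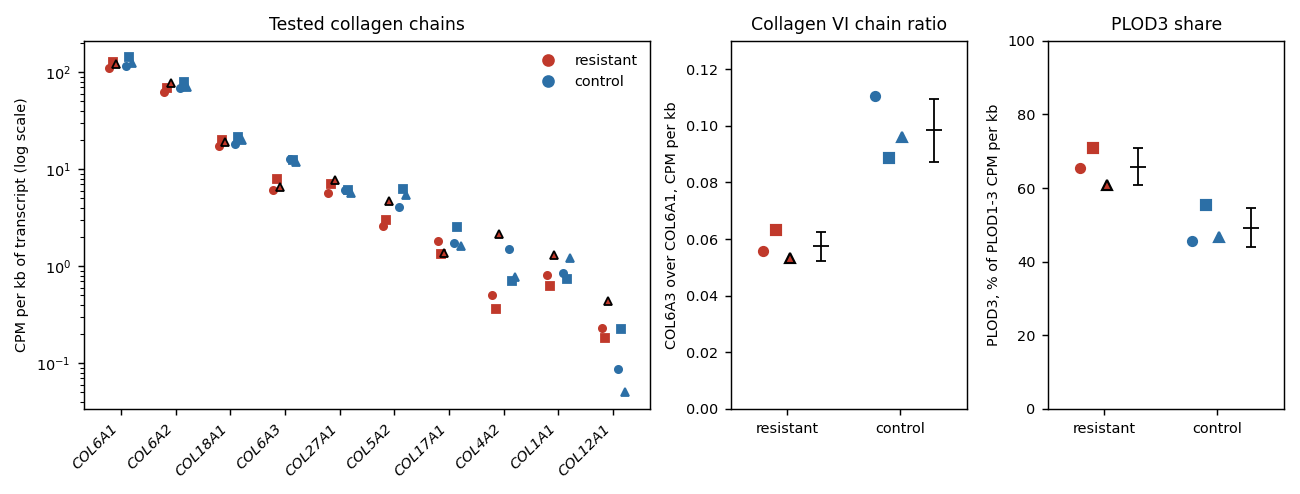
Left, CPM per kb of transcript (log axis) of the 10 tested collagen chains in each library, resistant cells left and control cells right of each gene, ordered by the control mean; middle, the COL6A3 to COL6A1 ratio per kb; right, PLOD3 as a percentage of the summed per-kb level of PLOD1, PLOD2 and PLOD3, both with mean and SD (n = 3). Outlined triangles are resistant replicate 3. The groups are apart in the middle and right panels, whose measures were chosen after the values were seen.

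Among the other tested collagens, COL5A2 was called lower. It encodes a chain of type V collagen, which sets the diameter of fibrils. COL5A2 had 18.4, 20.9 and 33.1 CPM in resistant cells, against 28.8, 43.7 and 38.7 CPM in control cells. Resistant replicate 3 reached above control replicate 1, so the groups overlapped. The log2FC was -0.63 (SE 0.21) with an adjusted p of 0.0251 in edgeR, and -0.93 with an adjusted p of 0.00316 without resistant replicate 3. The call was lost in edgeR without resistant replicate 1 (adjusted p = 0.15), resistant replicate 2 (0.124), control replicate 2 (0.176) or control replicate 3 (0.0862), and in DESeq2 (0.103), over a range of 0.00316 to 0.176 for all alternatives.

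The multiplexin COL18A1, whose product carries endostatin at its end and lies in basement membranes, had 115, 130 and 124 CPM in resistant cells, against 119, 140 and 132 CPM in control cells. Its log2FC was -0.09 with a 95% interval of -0.32 to 0.14. The fibrillar chain COL27A1 had 44.4, 54.1 and 59.9 CPM in resistant cells, against 47.8, 47.5 and 44.3 CPM in control cells, with a log2FC of 0.19 and an interval of -0.13 to 0.51. For both genes the groups overlapped, and the intervals leave out a change as large as that of COL6A3. COL17A1, a transmembrane collagen of hemidesmosomes, had 10.3, 7.52 and 7.77 CPM in resistant cells, against 9.77, 14.5 and 9.09 CPM in control cells. COL1A1, the main chain of type I collagen, had 5.41, 4.23 and 8.80 CPM in resistant cells, against 5.66, 4.90 and 8.21 CPM in control cells. The intervals were wide for these low genes, -1.12 to 0.28 for COL17A1 and -0.94 to 0.92 for COL1A1. COL12A1, a fibril-associated collagen, was at or under 5.11 CPM in every library and was not called (log2FC 1.08, interval -0.31 to 2.47).

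By mean level in CPM per kb, the order of the tested collagens in resistant cells was COL6A1 (119.6), COL6A2 (69.4), COL18A1 (18.7), COL6A3 (6.88), COL27A1 (6.78), COL5A2 (3.41), COL17A1 (1.5), COL4A2 (1.0), COL1A1 (0.914) and COL12A1 (0.283). In control cells the same order held, with 127 CPM per kb for COL6A1, 72.8 for COL6A2, 19.8 for COL18A1, 12.4 for COL6A3, 5.97 for COL27A1, 5.24 for COL5A2, 1.95 for COL17A1, 0.989 for COL4A2, 0.930 for COL1A1 and 0.121 for COL12A1. The place of COL4A2 above COL1A1 in resistant cells rests on resistant replicate 3. In resistant replicates 1 and 2 alone COL4A2 averaged 2.80 CPM and COL1A1 4.82 CPM, with transcripts of 6.49 and 6.73 kb. COL6A3 stood at about the level of COL27A1 in resistant cells and above it in control cells. The summed CPM over all 44 collagens was 1085 ± 112 in resistant and 1199 ± 107 in control cells (SD, n = 3 each), a difference within the spread between libraries (exact permutation p = 0.5). It was 963, 1110 and 1182 CPM in resistant replicates 1, 2 and 3, against 1106, 1315 and 1175 CPM in control replicates 1, 2 and 3. The type VI genes summed to 748, 862 and 855 CPM in resistant replicates 1, 2 and 3, against 866, 1009 and 901 CPM in control replicates 1, 2 and 3, without overlap (exact permutation p = 0.1, the smallest possible). The nearest libraries, at 862 and 866 CPM, were all but equal. The sum includes COL6A3, which was called, while the groups overlapped for COL6A1 and COL6A2, so it is no further evidence on type VI collagen as a whole.

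The lysyl hydroxylases moved in opposite directions. PLOD1, PLOD2 and PLOD3 encode enzymes that hydroxylate lysines of collagen; PLOD2 acts on the telopeptides at the ends of the helix and PLOD3 also has glycosyltransferase activity. PLOD1 had 69.0, 62.5 and 88.2 CPM in resistant cells, against 140, 112 and 125 CPM in control cells, with no overlap. PLOD2 had 72.5, 61.8 and 82.4 CPM in resistant cells, against 130, 87.4 and 112 CPM in control cells. Both were lower in every resistant library than in every control library, with resistant replicate 3 the highest resistant library. The log2FC was -0.76 (SE 0.13, adjusted p = 2.53e-05 in edgeR) for PLOD1 and -0.58 (SE 0.14, adjusted p = 0.00182 in edgeR) for PLOD2, and -0.92 and -0.68 without resistant replicate 3.

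PLOD3 rose. It had 237, 270 and 237 CPM in resistant cells, against 203, 223 and 185 CPM in control cells, without overlap. The log2FC was 0.28 (SE 0.10) with an adjusted p of 0.0374 in edgeR, and the call was lost with library-total scaling (adjusted p = 0.0545), and in edgeR without resistant replicate 2 (0.176), control replicate 1 (0.0718) or control replicate 3 (0.185), over a range of 0.0246 to 0.185. PLOD3 shares exon sequence with ZNHIT1 on the other strand in GENCODE 29, and since the use of strand in counting is not given, reads there cannot be assigned to one of them. Per kb, PLOD3 made up 65.4, 71.0 and 60.9% of the 3 lysyl hydroxylases in resistant replicates 1, 2 and 3, against 45.7, 55.3 and 46.6% in control replicates 1, 2 and 3, with an exact permutation p of 0.1, the smallest the design allows. The share was chosen after the values were seen and restates the calls of these genes.

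Of the prolyl 4-hydroxylase subunits among the members, P4HA2 had 9.20, 14.6 and 14.3 CPM in resistant cells, against 18.5, 16.9 and 20.5 CPM in control cells. The groups did not overlap, but the difference was not called (log2FC -0.54, SE 0.28, adjusted p = 0.157 in edgeR). P4HA3 was not tested, with at most 10 counts in a library. The subunit P4HA1, which is not a member, was not called either (log2FC -0.38, SE 0.24, adjusted p = 0.271 in edgeR).

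Of the 4 lysyl oxidase genes tested, 0 were called, with 0 at an unadjusted p under 0.05 in edgeR and 0 called in DESeq2 and limma-voom. LOXL2, a cross-linking enzyme often raised in liver fibrosis and carcinoma, was the most abundant by CPM and per kb. It had 50.6, 50.1 and 47.1 CPM in resistant cells, against 53.5, 62.7 and 51.0 CPM in control cells. These did not overlap, and the log2FC was -0.19 with a 95% interval of -0.50 to 0.12 and an adjusted p of 0.401 in edgeR. LOXL1, which acts mainly on elastic fibres, had 28.7, 19.3 and 23.3 CPM in resistant cells, against 31.4, 28.1 and 24.3 CPM in control cells, with overlap and a log2FC of -0.23 (interval -0.66 to 0.21). LOXL1, LOXL2, LOXL4 and P4HA2 each share exon sequence with an annotated gene on the other strand. LOX itself, the founding member, had 1.62, 3.06 and 8.59 CPM in resistant cells, against 3.09, 3.77 and 3.81 CPM in control cells, and LOXL4 stayed at or under 4.91 CPM in every library. LOX was thus lower in resistant replicates 1 and 2 than in any control library and higher in resistant replicate 3 than in any. Resistant replicate 2, with 13 counts, and control replicate 1, with 6, were all but equal in CPM. The log2FC of LOX was 0.33 with all libraries and -0.59 without resistant replicate 3. LOXL3, which was not tested, had 16, 12 and 8 counts in resistant replicates 1, 2 and 3, against 0, 4 and 6 in control replicates 1, 2 and 3. The summed CPM of the 5 oxidase genes was 83.8 ± 5.30 in resistant and 90.6 ± 7.72 in control cells (SD, n = 3 each; exact permutation p = 0.5).

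**Figure D3:**
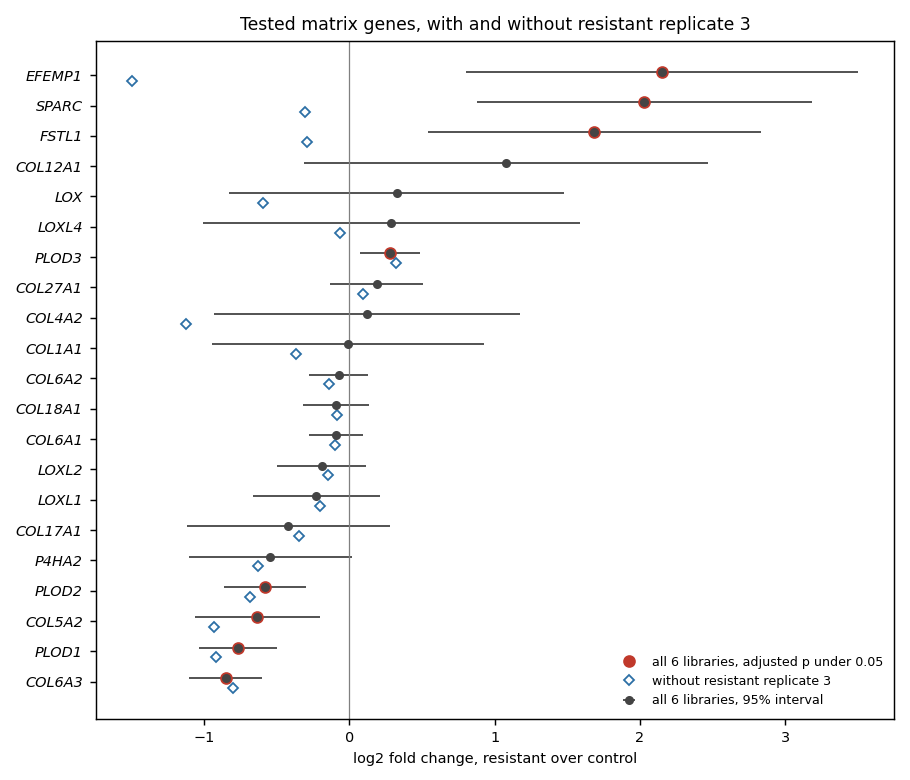
Log2 fold change, resistant over control, of the 21 tested matrix genes, as filled points with 95% intervals for all 6 libraries (ringed in red where the edgeR adjusted p was under 0.05) and as open diamonds without resistant replicate 3. COL6A3, PLOD1 and PLOD2 keep their place without that library, while EFEMP1, SPARC, FSTL1, LOX, LOXL4 and COL4A2 lie on the other side of 0; COL12A1 was not fitted without it.

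The small matrix proteins were called higher with all libraries and not without resistant replicate 3. SPARC, or osteonectin, is a collagen-binding glycoprotein that modulates cell attachment. It had 2.71, 4.23 and 44.6 CPM in resistant replicates 1, 2 and 3, against 4.11, 2.64 and 6.45 CPM in control replicates 1, 2 and 3. Resistant replicates 1 and 2 lay within the range of the control libraries, and resistant replicate 3 was 12.9 times the mean of those resistant libraries. The log2FC was 2.03 (SE 0.57, adjusted p = 0.00697 in edgeR) with all libraries and -0.30 (adjusted p = 0.814) without resistant replicate 3.

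EFEMP1, or fibulin-3, is a glycoprotein of elastic fibres and basement membranes. It had 0.541, 2.35 and 52.4 CPM in resistant replicates 1, 2 and 3, against 3.09, 2.64 and 7.04 CPM in control replicates 1, 2 and 3, so that resistant replicates 1 and 2 were below every control library and resistant replicate 3 above them all. Resistant replicate 2 and control replicate 2 were close, on 10 and 14 counts. The log2FC was 2.15 (SE 0.67, adjusted p = 0.0147 in edgeR) with all libraries and -1.49 (adjusted p = 0.2) without resistant replicate 3. FSTL1, a secreted glycoprotein related to follistatin, had 1.89, 4.70 and 31.3 CPM in resistant replicates 1, 2 and 3, against 7.20, 3.01 and 2.93 CPM in control replicates 1, 2 and 3. Resistant replicate 1 was below every control library, resistant replicate 2 within their range and resistant replicate 3 above it. The log2FC of FSTL1 was 1.68 (SE 0.57, adjusted p = 0.0253 in edgeR) with all libraries and -0.29 (adjusted p = 0.83) without resistant replicate 3. SPARC and FSTL1 share exon sequence with genes on the other strand. In edgeR without control replicate 2 the adjusted p was 0.0951 for SPARC, 0.14 for EFEMP1 and 0.156 for FSTL1. EFEMP1 was at 0.0626 without control replicate 1, and FSTL1 at 0.124 without control replicate 3, in edgeR. With a replicate block SPARC was called (0.0151 in edgeR) and EFEMP1 (0.0661) and FSTL1 (0.16) were not. The adjusted p of the alternatives ranged from 2.98e-07 to 0.814 for SPARC, from 2.02e-08 to 0.699 for EFEMP1 and from 0.000334 to 0.83 for FSTL1. In DESeq2 SPARC and EFEMP1 were given no adjusted p, and FSTL1 was not called (0.399). In limma-voom the adjusted p was 0.169 for SPARC, 0.699 for EFEMP1 and 0.221 for FSTL1.

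Other members were high in the same library. With a bar set after the values were seen, at least 5 CPM and at least 2 times every other library, 8 of the 57 members stood out in resistant replicate 3, where 50 of all 19202 genes, or 0.26%, did. They were EFEMP1, SPARC, FSTL1, COL8A1, COL4A1, COL1A2, LOX and COL5A1. Under the same bar 0 members stood out in resistant replicates 1 and 2 and in control replicates 2 and 3, and 1, COL9A3, in control replicate 1, where 106 of all genes did. SPARC, EFEMP1 and FSTL1 were put on the list, and this library set apart, with earlier results of these data known, so the count is a description of the list and nothing is read from it against all genes.

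The collagens concerned belong to different classes. COL4A1 and COL4A2, which encode the chains of the common basement membrane collagen, had 71 and 68 counts in resistant replicate 3, or 14.5 and 13.9 CPM. COL4A1 had 4 counts in each of resistant replicates 1 and 2, against 4, 6 and 0 in control replicates 1, 2 and 3. COL4A2 had 3.25 and 2.35 CPM in resistant replicates 1 and 2, against 9.77, 4.52 and 4.99 CPM in control replicates 1, 2 and 3. Without resistant replicate 3 the log2FC of COL4A2 was -1.12 (adjusted p = 0.242 in edgeR), and with it 0.12 (interval -0.93 to 1.17). COL4A2 is annotated in GENCODE 29 across the start of COL4A1 and has antisense genes in its span, so its reads are less certain. COL8A1, a network-forming collagen of vessel walls and endothelium, had 80 counts in resistant replicate 3, 0 and 6 in resistant replicates 1 and 2, and 0, 2 and 10 in control replicates 1, 2 and 3. COL1A2, the second chain of type I collagen, had 68 counts in resistant replicate 3 and 0 in each of the other resistant libraries, against 0, 12 and 14 in control replicates 1, 2 and 3. COL5A1 had 25 counts in resistant replicate 3, 6 and 4 in resistant replicates 1 and 2, and 0, 8 and 8 in control replicates 1, 2 and 3.

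Some endothelial marker genes were high in the same library, VWF and CDH5 most clearly. The summed CPM of the 10 listed markers was 41.4, 54.8 and 146 in resistant replicates 1, 2 and 3, against 66.3, 74.8 and 53.7 in control replicates 1, 2 and 3. PECAM1 (41.7 CPM) and KDR (42.6 CPM) gave most of the sum in resistant replicate 3. There 8 of the 10 were highest and all 10 were above 0, but TEK, ERG, CLDN5, EMCN and STAB2 had only 10 to 16 counts. The share of all genes highest in that library was not counted, so nothing is read from the 8 of 10. VWF, the von Willebrand factor gene, had 1.08, 1.41 and 26.2 CPM in resistant replicates 1, 2 and 3, against 0, 0.942 and 1.76 CPM in control replicates 1, 2 and 3. CDH5, the endothelial cadherin gene, had 0, 0 and 19.2 CPM in resistant replicates 1, 2 and 3, against 3.09, 0 and 2.35 CPM in control replicates 1, 2 and 3. KDR was at 20.1 CPM or more in all 6 libraries, and PECAM1 had 6.50, 12.9 and 41.7 CPM in resistant replicates 1, 2 and 3, against 43.2, 30.9 and 24.9 CPM in control replicates 1, 2 and 3. The 12 fibroblast and stellate markers summed to 21.1, 19.3 and 41.3 CPM in resistant replicates 1, 2 and 3, against 16.5, 25.0 and 33.7 CPM in control replicates 1, 2 and 3, and 5 of the 12, PDGFRA, PDGFRB, DCN, ACTA2 and RGS5, were highest in resistant replicate 3. LUM and RGS5 were the most abundant, with DES and DPT at 0 in every resistant library. The 10 leukocyte markers summed to 12.5 to 18.1 CPM in resistant and 13.6 to 22.6 CPM in control cells, with 0 highest in resistant replicate 3. The part of the endothelial markers in the SPARC, EFEMP1, FSTL1, COL4A1, COL8A1 and COL1A2 values was not tested.

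**Figure D4:**
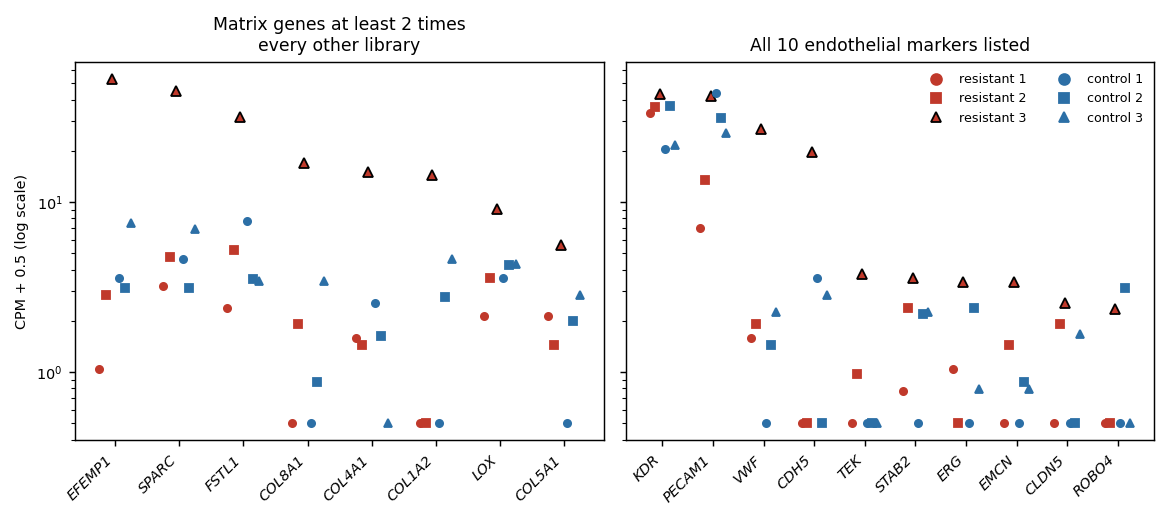
CPM plus 0.5 (log axis) in each library of the 8 matrix genes at least 2 times every other library in resistant replicate 3 (left) and of all 10 endothelial markers listed (right). The outlined triangle, resistant replicate 3, lies above the other 5 libraries for every matrix gene by the rule that chose them, and for 8 of the 10 markers, all but PECAM1 and ROBO4.

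Of the members, 36 did not pass the filter, 34 collagens with LOXL3 and P4HA3. COL9A1 was at 0 in every library, and 17 in all stayed at 9 counts or fewer in each library. The other 19 had at least 10 counts in some library, in 9 cases in resistant replicate 3, in 3 in resistant replicate 1 or 2, and in 14 in a control library, the deepest library being control replicate 2. Besides those already described they were COL16A1, COL8A2, COL24A1, COL11A1, COL3A1, COL7A1, COL6A6, COL11A2, COL28A1, COL5A3, COL9A3, COL4A6 and COL4A5. COL24A1, a fibrillar chain, had 0, 0 and 2 counts in resistant replicates 1, 2 and 3, against 4, 22 and 12 in control replicates 1, 2 and 3, and with no filter on low counts it was called lower (adjusted p = 0.00868 in edgeR). With no filter COL4A1 and COL8A1 were called higher (adjusted p = 0.00407 and 0.0035 in edgeR), on the counts of resistant replicate 3 given above. COL9A3 had 4, 2 and 3 counts in resistant replicates 1, 2 and 3, against 12, 14 and 7 in control replicates 1, 2 and 3, and was not called with no filter (0.148). COL4A5, a basement membrane chain, had 6, 12 and 13 counts in resistant replicates 1, 2 and 3, against 0, 8 and 2 in control replicates 1, 2 and 3. In CPM its groups did not overlap, and it was not called with no filter (adjusted p = 0.408 in edgeR). The remaining genes of this group were at or under 23 counts in every library and were not called with no filter.

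Of 85 other genes of collagen synthesis, secretion and the matrix in the table, 46 were tested and 7 were called higher and 10 lower, against the 11.7% and 12.3% of all tested genes. This list too was chosen with earlier results known, so nothing is read from these counts against those shares. In the endoplasmic reticulum, 2 of 13 tested genes fell and 1 rose. P4HB, the beta subunit of prolyl 4-hydroxylase, had 597, 570 and 599 CPM in resistant cells, against 781, 773 and 739 CPM in control cells (log2FC -0.38, SE 0.08, adjusted p = 0.000919 in edgeR). P3H1, a prolyl 3-hydroxylase, averaged 20.9 ± 2.64 CPM in resistant and 39.9 ± 7.62 CPM in control cells (SD, n = 3 each; log2FC -0.90), while TMEM38B, an endoplasmic reticulum cation channel, had a log2FC of 0.42. The collagen chaperone SERPINH1 had 86.6, 105 and 90.4 CPM in resistant cells, against 68.9, 87.8 and 64.5 CPM in control cells, and was not called (adjusted p = 0.0683 in edgeR).

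Genes of secretion and propeptide cleavage fell in 4 of 5 tested, with 0 higher. MIA3, or TANGO1, which loads procollagen into carriers at endoplasmic reticulum exit sites, had 31.1, 39.3 and 45.8 CPM in resistant cells, against 76.6, 60.6 and 80.1 CPM in control cells (log2FC -0.88, SE 0.16, adjusted p = 6.33e-05 in edgeR). CREB3L2, a transcription factor that activates secretory genes for collagen export, averaged 44.7 ± 4.40 CPM in resistant and 82.8 ± 22.1 CPM in control cells (SD, n = 3 each). The MIA3 partner MIA2 averaged 103 ± 8.36 CPM in resistant and 141 ± 8.63 CPM in control cells, and the procollagen C-proteinase BMP1 averaged 43.1 ± 5.70 CPM in resistant and 61.6 ± 4.46 CPM in control cells (SD, n = 3 each). For these 4 genes the resistant libraries all lay below the control libraries. Without resistant replicate 3, BMP1 lost its call (adjusted p = 0.0895 in edgeR). Among collagen receptors 1 of 5 tested fell, ITGA11, an integrin subunit for fibrillar collagen, with 7.04, 6.11 and 4.50 CPM in resistant cells, against 15.4, 18.5 and 19.4 CPM in control cells (log2FC -1.61, SE 0.33, adjusted p = 0.000272 in edgeR).

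Of 23 other matrix proteins tested, 6 rose and 3 fell. Those that rose were the latent TGF-beta binding proteins LTBP1 (log2FC 1.53), LTBP4 (0.91) and LTBP3 (0.73), the proteoglycan VCAN (1.31), the follistatin-like FSTL3 (1.57) and thrombospondin THBS1 (0.46). LTBP1 had 104, 118 and 136 CPM in resistant cells, against 48.8, 37.7 and 40.5 CPM in control cells. FSTL3, a relative of FSTL1, had 93.9, 87.0 and 71.6 CPM in resistant cells, against 39.1, 24.9 and 24.3 CPM in control cells, and was thus high in every resistant library. Those that fell were FN1 (log2FC -0.79), the basement membrane linker NID1 (-1.10) and the fibulin FBLN1 (-0.50). NID1 had 63.9, 84.4 and 90.8 CPM in resistant cells, against 181, 165 and 171 CPM in control cells. THBS1 and FBLN1 lost their calls without resistant replicate 3 (adjusted p = 0.116 and 0.06 in edgeR).

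In GENCODE 29 on GRCh38, matched by symbol, COL6A3 (Entrez 1293) spans 237324003 to 237414375 on chromosome 2 and COL5A2 (1290) 189031896 to 189225312 on the same chromosome. PLOD1 (5351) spans 11934205 to 11975538 on chromosome 1, PLOD2 (5352) 146069440 to 146163653 on chromosome 3 and PLOD3 (8985) 101205977 to 101218420 on chromosome 7. SPARC (6678) spans 151661096 to 151687165 on chromosome 5, EFEMP1 (2202) 55865967 to 55924139 on chromosome 2 and FSTL1 (11167) 120392293 to 120451253 on chromosome 3. The submitters' own genome build is not stated, so these spans only locate the genes.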

How the data were processed

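RNA sequencing libraries were made from total RNA, taken with Trizol and a column kit, of 3 resistant and 3 control MHCC97H samples, per the labels' protocols. The authors deposited whole-number counts per gene symbol, not normalized; Trimmomatic, HISAT2 and Bowtie2 are listed, per the submitters' processing notes, with no version or role. No source used here names the counter, the build, the annotation or the use of strand. The 6 library columns of the series table equalled the single-library files, and 27 symbols turned into dates were renamed from the Entrez ID. Of the non-zero counts 63.6 to 69.1% were even, so halved counts were an alternative. Chi-square tests between replicates, with counts halved, gave 1.79 to 2.99 per degree of freedom, and every library was kept as its own replicate.

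After filterByExpr and TMM scaling, group was the single model term in edgeR's quasi-likelihood test (edgeR 4.0.16, R 4.3.3), with Benjamini-Hochberg adjustment over the 10804 genes tested. The common dispersion was 0.0170. SE is the log2 fold change over the square root of F, and the 95% intervals use it. Alternatives were other scalings, filters and thresholds, DESeq2 1.42.0, limma-voom (limma 3.58.1), halved counts, a replicate block and leaving out each library.

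The members and gene lists were chosen with earlier results of these data known. Values per library are given for called members, tested members at 5 CPM or more and SPARC and EFEMP1; other members are named at 10 counts or more in a library. Pathway genes are those called, at most 4 with the smallest p per role and direction. P4HA1, SERPINH1, THBS1, LTBP3 and IFI27, outside these rules, were named after their values were seen. The chain ratios and enzyme shares were chosen then too. Figures were drawn with matplotlib 3.10.9.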

Additional observations from a re-analysis of the deposited data

How the results depend on the processing

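Over single members and 16 alternatives, 285 values kept their direction and side of the threshold. Another 24 lost the call with the sign kept, and 18 changed sign. Without resistant replicate 3, SPARC, EFEMP1 and FSTL1 changed sign and lost the call too, and are counted under changed sign. Values of a gene not fitted or without an adjusted p are left out, which leaves 14 alternatives for SPARC and EFEMP1 and 15 for FSTL1. COL6A3, PLOD1 and PLOD2 were called under every alternative, with log2FC of -0.96 to -0.77, -0.92 to -0.65 and -0.74 to -0.45. The count of members called, 8, was 11 with no low-count filter, 10 with at least 1 CPM in 3 libraries, 4 at an adjusted p under 0.01, 5 with halved counts (which leave 15 members), 4 in DESeq2, 5 in limma-voom, and 4 to 9 when a library was left out, 4 without control replicate 2, 5 without control replicate 3 and 6 without resistant replicate 3. COL24A1 was among the calls with no low-count filter and with at least 1 CPM in 3 libraries. It was also among those without resistant replicate 1, 2 or 3 and without control replicate 1. Wherever a filter was used, COL24A1 passed it through control libraries alone, which fixes its direction. It therefore adds nothing to those counts. The lost calls were those of SPARC, EFEMP1, FSTL1, COL5A2 and PLOD3; SPARC and EFEMP1 have no adjusted p in DESeq2; the cause was not tested. The count of pathway genes called, 17, was 15 to 18 throughout. When libraries were left out the log2FC ranged from -0.30 to 2.53 for SPARC, -1.49 to 2.76 for EFEMP1, -0.29 to 2.19 for FSTL1, -1.12 to 0.53 for COL4A2, -0.36 to 0.26 for COL1A1, -0.14 to 0.0083 for COL6A2, -0.59 to 0.71 for LOX and -0.12 to 0.74 for LOXL4, with the lowest values of SPARC, EFEMP1, FSTL1 and LOX without resistant replicate 3. COL4A2 was also -0.22 with the replicate block and -0.072 in limma-voom, and COL1A1 0.0026 with no filter, 0.0063 with at least 1 CPM in 3 libraries, 0.0076 with halved counts and 0.016 in limma-voom. Same-numbered libraries did not deviate together (r = -0.015, 0.033 and -0.0065), so the numbers were not taken as pairs; with the replicate block 6 members were called, without EFEMP1 and FSTL1. The scalings moved the median log2FC of all genes by less than 0.1. Depth limits the collagens under about 10 counts.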

Other observations

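At 5 CPM or more and at least 4 times every other library, 23 of all genes counted stood out in resistant replicate 3, among them 5 of the matrix genes and the endothelial markers VWF and CDH5. By the same bar 27 genes stood out in control replicate 1, 2 in control replicate 2 and 1 in each of resistant replicates 1 and 2 and control replicate 3. Most such genes failed the filter on low counts, which a gene high in 1 library can hardly pass: 4 of the 23 were tested, namely EFEMP1, SPARC, FSTL1 and IFI27. IFI27, an interferon-stimulated gene, had 3.25, 4.70 and 27.0 CPM in resistant replicates 1, 2 and 3, against 0, 4.14 and 3.52 CPM in control replicates 1, 2 and 3. The bar was set after the values were seen.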
